A study of Mus musculus with 6 samples.

Results

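The genes described here are pluripotency factors, a set of 10 genes listed by name (Pou5f1, Nanog, Zfp42, Dppa5a, Dppa3, Esrrb, Klf4, Tfcp2l1, Nr0b1 and Tcl1). They were measured in cells labelled as neural progenitors and made from mouse embryonic stem (ES) cells. The probe sets of the deposited value table were named through their RefSeq transcript accessions, and 9 of the 10 genes were matched, each to 1 probe set, of 15302 named genes in all. Nanog was not matched to a probe set and is not analysed here. There were 6 arrays, 1 per sample. On 3 of them the cells carried GFP in the Sox1 locus and a Sox3 transgene under the Nestin promoter (genotype Sox1-GFP and Nestin-Sox3, called Sox3 cells below), and on the other 3 the cells carried the Sox1-GFP allele alone (control). Cells of both genotypes grew as monolayers for 4 days, received 0.5 µM retinoic acid on days 0 and 2, and were sorted by FACS on day 4, for which the sample descriptions mark the cells as Sox1+ and give no gate. The Sox3 transgene is driven in cells in which the Nestin promoter is active, both groups carry the GFP allele, and the labels do not say whether a genotype was 1 ES cell clone or whether the replicates, labelled as biological, came from separate cultures. P-values therefore measure the spread between these samples, which may be partly technical. The question asked of these genes is how bright their signal is in the sorted cells and whether it differs with Sox3 over-expression. None of the 6 arrays is of ES cells or of an earlier day, so loss or retention since the ES cell state cannot be judged.

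In mouse ES cells, the POU-domain factor Oct4 (encoded by Pou5f1) works with Sox2 and Nanog on shared enhancers, and a wider group of factors that includes Esrrb, Klf4, Tfcp2l1 and Nr0b1 holds the naive state together under LIF signalling. Zfp42 (Rex1), Dppa5a and Dppa3 (Stella) are widely used markers of that state. During neural differentiation these genes are silenced, and SoxB1 factors such as Sox2 and Sox3 remain as partners of other POU factors.

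Values are log2 signals from RMA (robust multi-array average), so a difference of 1 is a doubling of signal. No detection call came with them, so a reference was taken from 66 olfactory, vomeronasal and taste receptor genes, which are not expected to be expressed in these cells. Their mean log2 signals over the 6 arrays ran from 4.6 to 6.44, with a median of 5.13. Of all 15302 named genes, 60.9% had a mean signal above the highest of these. Probe sets bind with different strength, so a signal places a gene within the arrays and does not measure its RNA against that of another gene.

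All 9 matched pluripotency factors had a mean signal above the highest receptor gene. The median of their signals lay at percentile 87.7 of all probe sets, against 53.8 for all named genes. Dppa3 was the nearest to the receptor range, 0.19 above its upper end, and on control replicate 3 it lay inside that range. The other 8 genes lay at least 1.48 above it on average. In bulk samples such as these, fewer cells of a type and less RNA per cell cannot be told apart.

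**Figure D1:**
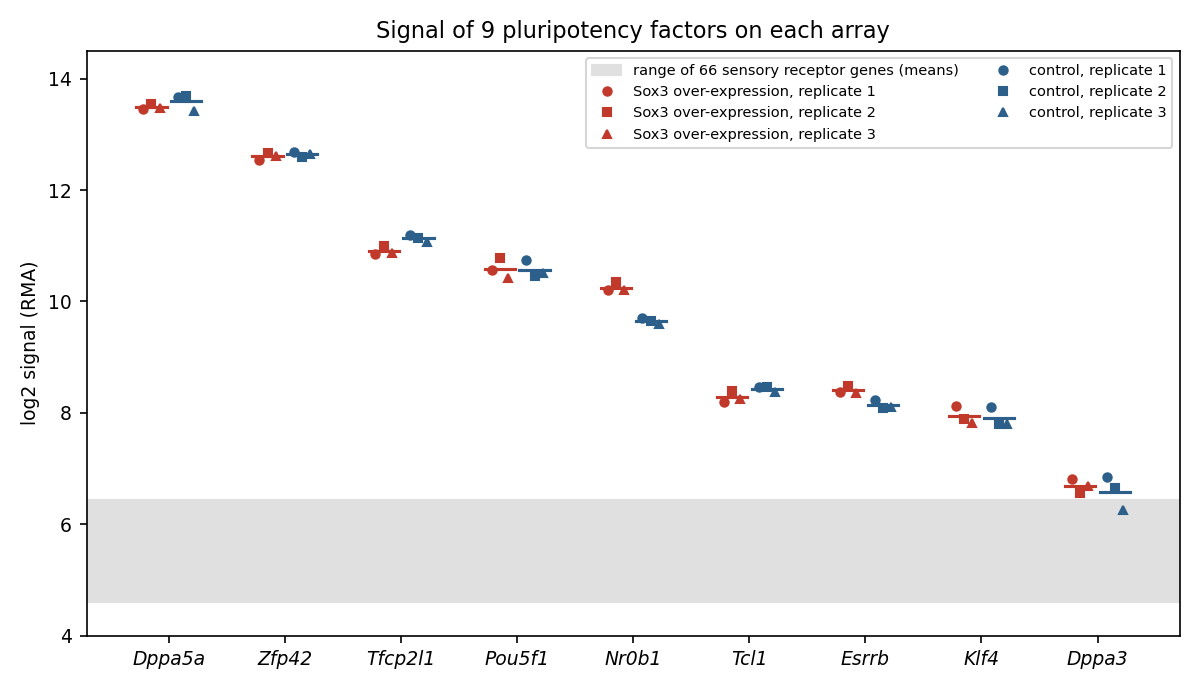
Log2 signal (RMA) of the 9 matched pluripotency factors on each array, with symbols for the replicates, a line at each group mean and a grey band for the range of mean signals of 66 sensory receptor genes (4.6 to 6.44). Nr0b1 is the gene whose groups stand furthest apart, and Dppa3 is the gene next to the grey band.

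Pou5f1, the core POU factor of the pluripotent state, had log2 signals of 10.57, 10.78 and 10.42 in the Sox3 cells and of 10.75, 10.45 and 10.51 in the control cells. The groups overlapped fully, with the highest and the lowest value both in the Sox3 cells. The means were 10.59 ± 0.18 and 10.57 ± 0.16 (SD, n = 3 each), a difference of 0.02 (95% interval -0.23 to 0.27; limma adjusted p = 0.92). Its signal stood between percentiles 91.2 and 93.5 of all probe sets on the 6 arrays. The RefSeq table lists 5 related sequences of Pou5f1 (named Pou5f1-rs), 2 copies of Dppa5a, and 1 pseudogene each of Zfp42 and Dppa3. Whether their transcripts bind the same probes was not tested. The 250 bases before the RefSeq start of Pou5f1 (GRCm38.p6, chr17:35505782-35506031, plus strand) are shown because this is the promoter of the gene after which the state is most often scored. Capitals mark a GC box (GGGCGG) and a nuclear receptor half-site (AGGTCA), the kind of element that orphan receptors bind, whose far ends lie 45 and 33 bases before the start.
Pou5f1: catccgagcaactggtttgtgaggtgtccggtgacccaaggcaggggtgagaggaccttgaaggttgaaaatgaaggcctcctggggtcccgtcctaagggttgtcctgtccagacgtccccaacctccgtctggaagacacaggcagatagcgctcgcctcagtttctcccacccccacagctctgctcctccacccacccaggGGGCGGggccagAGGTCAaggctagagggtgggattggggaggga

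Esrrb, an orphan nuclear receptor of the naive network, had signals of 8.37, 8.48 and 8.36 in the Sox3 cells and of 8.23, 8.09 and 8.1 in the control cells. All 3 Sox3 arrays were above all 3 control arrays, by 0.13 at the narrowest point. The difference was 0.26 ± 0.06 (SE; 95% interval 0.12 to 0.4), and its limma adjusted p of 0.054 missed the threshold of 0.05. The adjusted p was 0.034 after quantile normalisation of the deposited values, 0.039 after cyclic loess and 0.048 when dim probe sets were left out. Those were the only 3 of the 13 other settings in which Esrrb passed. With 1 array left out its limma adjusted p was 0.057 to 0.16. Klf4, a Krüppel-like zinc finger factor, had signals of 8.12, 7.89 and 7.81 in the Sox3 cells and of 8.11, 7.8 and 7.8 in the control cells. Replicate 1 was the brightest array for Klf4 in both groups, and the groups overlapped (difference 0.04, 95% interval -0.2 to 0.29; limma adjusted p = 0.83).

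Tfcp2l1, a CP2-family factor that acts downstream of LIF and Stat3 in ES cells, had signals of 10.85, 10.99 and 10.87 in the Sox3 cells and of 11.19, 11.14 and 11.07 in the control cells. Here all 3 Sox3 arrays were below all 3 control arrays, by 0.08 at the narrowest point. The difference was -0.23 ± 0.06 (SE; 95% interval -0.36 to -0.1), and it did not pass (limma adjusted p = 0.07; 0.063 to 0.23 over the 13 other settings). Its upstream 250 bases (GRCm38.p6, chr1:118627695-118627944, plus strand) are shown beside those of Nr0b1 below because the arrays of these 2 genes separated in opposite directions. None of the 5 letter strings searched occurs in it, so it has no capitals.
Tfcp2l1: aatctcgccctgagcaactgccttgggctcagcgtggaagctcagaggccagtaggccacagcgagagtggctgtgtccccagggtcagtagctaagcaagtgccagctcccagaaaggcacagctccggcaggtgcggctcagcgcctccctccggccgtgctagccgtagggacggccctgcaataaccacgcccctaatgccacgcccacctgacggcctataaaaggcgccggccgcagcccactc

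Nr0b1 was the 1 pluripotency factor that passed the test, and it rose in the Sox3 cells. It encodes Dax1, an X-linked orphan receptor without the usual DNA-binding domain, which binds other nuclear receptors and the POU factor Oct4 in ES cells. Its signals were 10.21, 10.34 and 10.2 in the Sox3 cells and 9.7, 9.65 and 9.6 in the control cells. The groups did not overlap, and the gap of 0.5 between the lowest Sox3 array and the highest control array was wider than the range within either group (0.14 and 0.1). The means were 10.25 ± 0.08 and 9.65 ± 0.05 (SD, n = 3 each). The difference of 0.6 ± 0.06 (SE; 95% interval 0.47 to 0.73) is a 1.52-fold rise (limma adjusted p = 0.00307). Among the 195 genes that rose, Nr0b1 was number 31 by the size of the difference. Nr0b1 passed in all 13 other settings, at differences of 0.56 to 0.68 and adjusted p of 0.0016 to 0.022, including the 6 fits that left out 1 array.

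The upstream 250 bases of Nr0b1 (GRCm38.p6, chrX:86191525-86191774, plus strand) are shown because it is the gene that moved. Capitals mark a nuclear receptor half-site (AGGTCA, far end 126 bases before the start) and 1 of the 2 Sox strings searched (ACAAAG, far end at 101).
Nr0b1: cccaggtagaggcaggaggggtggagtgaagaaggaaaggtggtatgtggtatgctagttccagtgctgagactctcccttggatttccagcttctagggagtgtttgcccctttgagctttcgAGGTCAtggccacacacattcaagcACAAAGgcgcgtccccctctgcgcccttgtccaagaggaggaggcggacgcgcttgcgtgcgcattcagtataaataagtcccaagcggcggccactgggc
Of 32851 promoter windows in the RefSeq table, 16.5% hold ACAAAG and 14% hold AGGTCA on either strand. Both strings are thus common in windows of this length, and a match is not a binding site.

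The marker genes of the state did not pass. Zfp42, which encodes the zinc finger protein Rex1, had signals of 12.54, 12.66 and 12.61 in the Sox3 cells and of 12.68, 12.6 and 12.64 in the control cells. It varied least of the 9, with SDs of 0.06 and 0.04 (n = 3 each; difference -0.03, 95% interval -0.15 to 0.09; limma adjusted p = 0.71), and the sign of this difference turned after quantile normalisation (0.03) and cyclic loess (0.04). Its upstream 250 bases (GRCm38.p6, chr8:43307010-43307259, minus strand) are shown because they hold the octamer core, the string that POU factors such as Oct4 recognise. Capitals mark that core (TTTGCAT, far end 185 bases before the start) and a pair of GC boxes on the other strand, which read CCGCCC here.
Zfp42: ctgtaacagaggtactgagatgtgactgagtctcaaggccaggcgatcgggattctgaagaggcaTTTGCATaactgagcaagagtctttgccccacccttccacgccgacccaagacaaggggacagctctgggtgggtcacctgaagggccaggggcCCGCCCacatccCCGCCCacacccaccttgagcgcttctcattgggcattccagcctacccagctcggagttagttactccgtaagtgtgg
The octamer core TTTGCAT occurs in 4.12% of the promoter windows, and in 1 of the 7 pluripotency factors that have a window in the table, namely Zfp42. The GC box GGGCGG occurs in 32.7% of windows and in 4 of these 7 genes, AGGTCA in 2 of 7 and ACAAAG in 1 of 7. The other Sox string, ACAATG, occurs in 10.7% of windows and in none of the 7. The 7 genes are Pou5f1, Zfp42, Esrrb, Klf4, Tfcp2l1, Nr0b1 and Tcl1. Both strands were searched, and in these windows no match of 1 string overlaps a match of another.

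Dppa5a, a KH-domain RNA-binding protein of pluripotent cells, had signals of 13.46, 13.54 and 13.47 in the Sox3 cells and of 13.67, 13.69 and 13.42 in the control cells. Control replicate 3 was the lowest of all 6 arrays and the other control arrays were the highest. The difference was -0.1 (95% interval -0.28 to 0.08; limma adjusted p = 0.45). The gene stood at percentile 99.7 or above on every array.

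Dppa3, a maternal and germline protein that protects DNA methylation in the early embryo, had signals of 6.81, 6.56 and 6.68 in the Sox3 cells and of 6.84, 6.65 and 6.25 in the control cells. Its spread between control arrays, an SD of 0.3, was the largest of the 9 genes in either group, and the groups overlapped (difference 0.1, 95% interval -0.22 to 0.43; limma adjusted p = 0.67). Without control replicate 3 the difference was -0.06. Tcl1, a cofactor of the kinase Akt, had signals of 8.19, 8.4 and 8.24 in the Sox3 cells and of 8.47, 8.47 and 8.37 in the control cells. The groups overlapped only in that Sox3 replicate 2 was above control replicate 3, and the difference of -0.16 (95% interval -0.31 to -0.01) did not pass (limma adjusted p = 0.2).

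**Figure D2:**
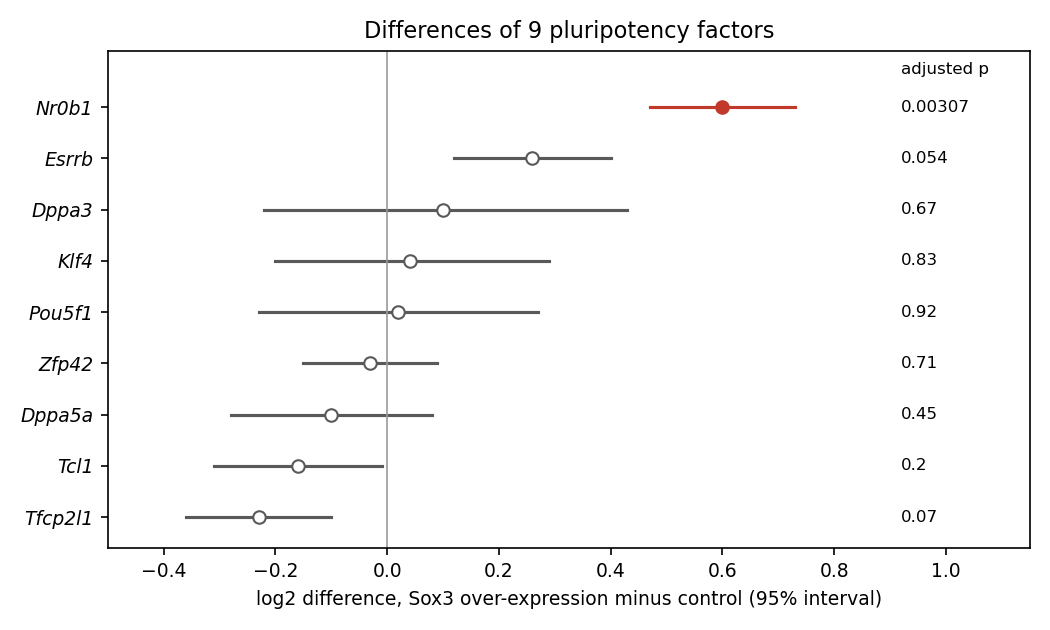
Log2 difference in signal, Sox3 over-expression minus control, for each of the 9 pluripotency factors, with 95% intervals and limma adjusted p. The filled point is Nr0b1 at 0.6, which passed the threshold, and the open points, which did not, lie between -0.23 and 0.26.

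In all, 1 of the 9 pluripotency factors rose and none fell, by limma at an adjusted p under 0.05 over all probe sets. Over all 15302 named genes the share called was 3.94%, with 1.27% higher and 2.67% lower. At an unadjusted p under 0.05, 4 of the 9 passed (Nr0b1, Esrrb, Tfcp2l1 and Tcl1), against 23.8% of all genes. The arrays of the groups did not overlap for 3 of the 9, against 31.3% of all genes, so this count is near the background. The Sox3 arrays were the higher ones for 2 of these, Nr0b1 and Esrrb, and the lower ones for 1, Tfcp2l1, against 13.1% and 18.3% of all genes. The median difference of the 9 was 0.02, against 0 for all genes, and the median size of the difference was 0.1 against 0.08. The 95% intervals of the 8 genes that did not pass lie between -0.36 and 0.43 on the log2 scale, which does not show that these genes did not change. Over all probe sets 255 of the 791 that passed rose with the values as deposited, against 382 of 880 after quantile normalisation and 365 of 820 after cyclic loess.

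Among the arrays of a group the 9 genes shared some of their order. Within the control group, replicate 1 was the highest array for 8 of the 9 genes, against 31.7% of all genes, and replicate 3 was the lowest for 6 of 9, against 36.5%. Within the Sox3 group, replicate 2 was the highest for 7 of 9, against 31.5% of all genes. The mean signal of the 9 genes was 9.9, 9.96 and 9.85 on the Sox3 arrays and 9.96, 9.84 and 9.75 on the control arrays. The range of this mean within the control group was thus wider than the distance between the groups. Control replicate 3 also stood apart over all probe sets, with a score of 22.4 on the first principal component where control replicates 1 and 2 had 4.83 and 6.04 and the Sox3 arrays had -15.3 to -7.91, and its interquartile range of log2 signal was 3.17 against 2.89 to 3.02. The medians of all 6 arrays were 6.85 to 6.87.

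**Figure D3:**
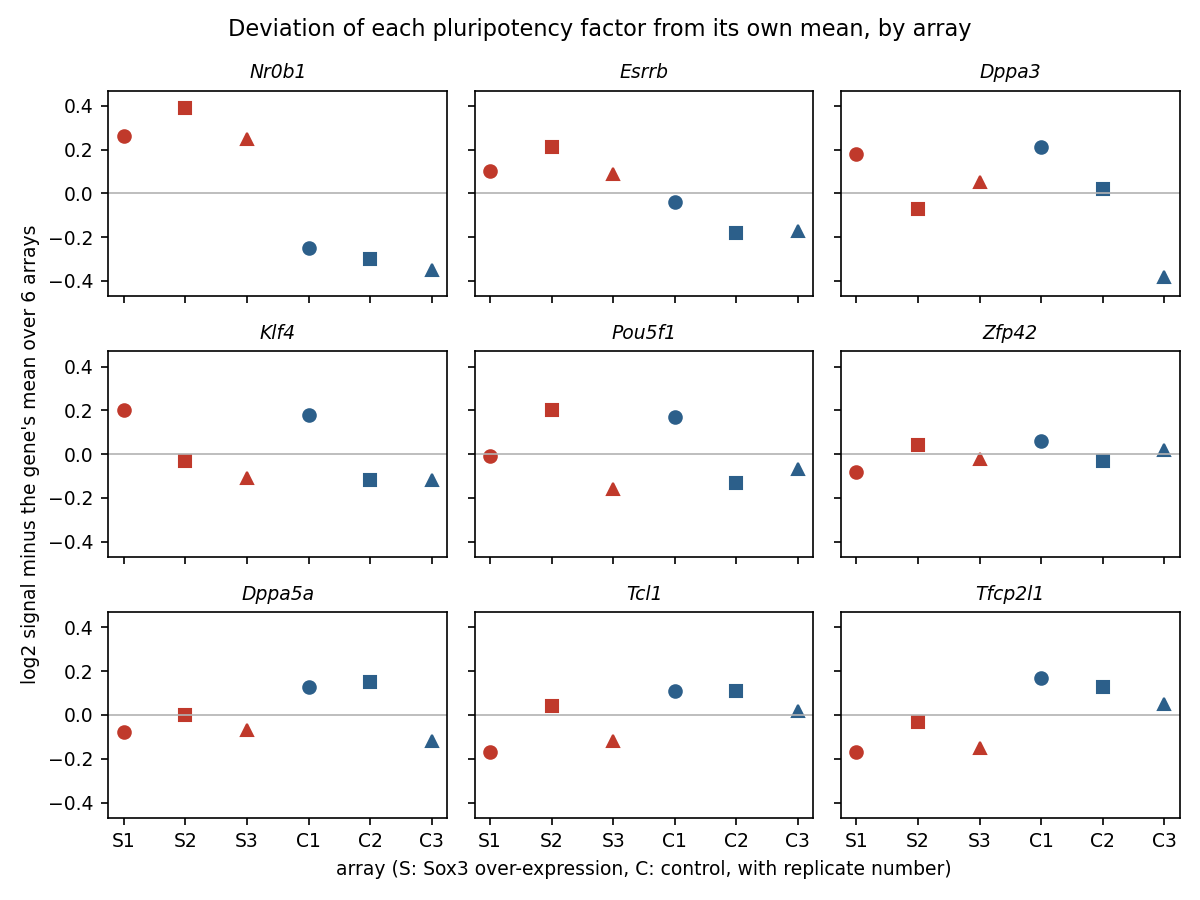
Deviation of the log2 signal from the mean of the gene over all 6 arrays, for each of the 9 pluripotency factors, by array (red for Sox3 over-expression, blue for control). Nr0b1 and Esrrb are above their means on all Sox3 arrays and below on all control arrays, Tfcp2l1 is the reverse, and control replicate 1 is the highest control array for 8 of the 9 genes.

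The genes whose pattern over the 6 arrays was nearest to that of Nr0b1 were Penk, Lpar6 and Bmerb1. Their log2 values, each centred on the mean of the gene, departed from those of Nr0b1 by a root mean square of 0.06, 0.07 and 0.07. Penk, which encodes the opioid precursor proenkephalin, was higher by 0.5 ± 0.05 (SE; limma adjusted p = 0.00293). Lpar6, a lysophosphatidic acid receptor gene, was higher by 0.59 ± 0.05 (SE; limma adjusted p = 0.00294), and Bmerb1 by 0.47 ± 0.05 (SE; limma adjusted p = 0.0046). With 6 arrays in 2 groups, likeness of pattern is for the most part likeness of the group difference.

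Of 25 measured genes from a list of 27 other pluripotency genes, 1 rose and 3 fell, 21 did not pass, and the median difference was 0.08. Among all named genes 1.27% rose and 2.67% fell. Dnmt3l, the catalytically inactive partner of the de novo DNA methyltransferases, rose from 7.65, 7.7 and 7.55 in the control cells to 8.07, 8.34 and 8.4 in the Sox3 cells, a difference of 0.64 ± 0.09 (SE; limma adjusted p = 0.012). Its groups did not overlap, and the call was lost without Sox3 replicate 2 (0.6, adjusted p = 0.057). Prdm14, a PR-domain factor that represses Dnmt3 genes in naive ES cells, fell by 0.45 ± 0.08 (SE; limma adjusted p = 0.031). Sox2, the SoxB1 partner of Oct4, fell by 0.37 ± 0.06 (SE; limma adjusted p = 0.024) and Fbxo15, an F-box gene regulated by Oct4 and Sox2, fell by 0.4 ± 0.08 (SE; limma adjusted p = 0.043). With 1 array left out, the number of the 25 genes that passed was 1 to 3, and Prdm14, Sox2 and Fbxo15 kept their call in 2, 2 and 1 of the 6 fits (adjusted p up to 0.12, 0.075 and 0.1). With all 6 arrays, none of these 3 passed after cyclic loess, which left 2 higher and 0 lower calls among the 25 genes (limma adjusted p = 0.055, 0.053 and 0.052). Prdm14 did not pass after quantile normalisation either (0.057), nor did Fbxo15 after median centring (0.052) or with the replicate number as a block (0.063).

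Of these 25 genes 24 had a mean signal above the highest receptor gene, the exception being Pecam1, where 60.9% of all genes had one. Their median signal lay at percentile 89.9 of all probe sets, against 87.7 for the 9 genes. Tdgf1, the Nodal coreceptor Cripto, had means of 9.99 ± 0.08 in Sox3 and 10.45 ± 0.21 in control cells (SD, n = 3, adjusted p from limma 0.052). Those of Utf1, a chromatin-associated factor of ES cells, were 10.63 ± 0.1 and 10.25 ± 0.17 (SD, n = 3, adjusted p from limma 0.064). Pecam1, Tdgf1 and Utf1 were picked once their values had been seen.

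None of the 7 LIF pathway genes passed (limma; 1 at an unadjusted p under 0.05, and none in any other setting for the 2 genes with the smallest p). Socs3, a feedback inhibitor induced by Stat3, lay at 7.49, 7.48 and 7.46 in the Sox3 cells and at 7.28, 7.22 and 7.38 in the control cells (difference 0.19 ± 0.05 SE, limma adjusted p = 0.098). Lifr, the LIF receptor gene, lay inside the receptor gene range in both groups, with means of 6.11 ± 0.04 and 6.02 ± 0.11 (SD, n = 3; adjusted p from limma 0.41).

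Of 11 genes listed here as repressors of ES cell genes, 3 fell, none rose and 8 did not pass, and the median difference was -0.18. Among all named genes 2.67% fell and 1.27% rose. The 3 that fell were the COUP-TF receptor gene Nr2f1, lower by 1.73-fold, the DNA methyltransferase gene Dnmt3a, 1.42-fold, and the NuRD remodeller gene Chd4, 1.3-fold. Nr2f1 lay at 9.17, 9.22 and 9.19 in the Sox3 cells and at 9.86, 9.78 and 10.3 in the control cells, with control replicate 3 the highest. None of the 3 passed when Sox3 replicate 1 or replicate 2 was left out, nor did Nr2f1 without Sox3 replicate 3 (adjusted p from limma up to 0.072, 0.06 and 0.058).

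**Figure D4:**
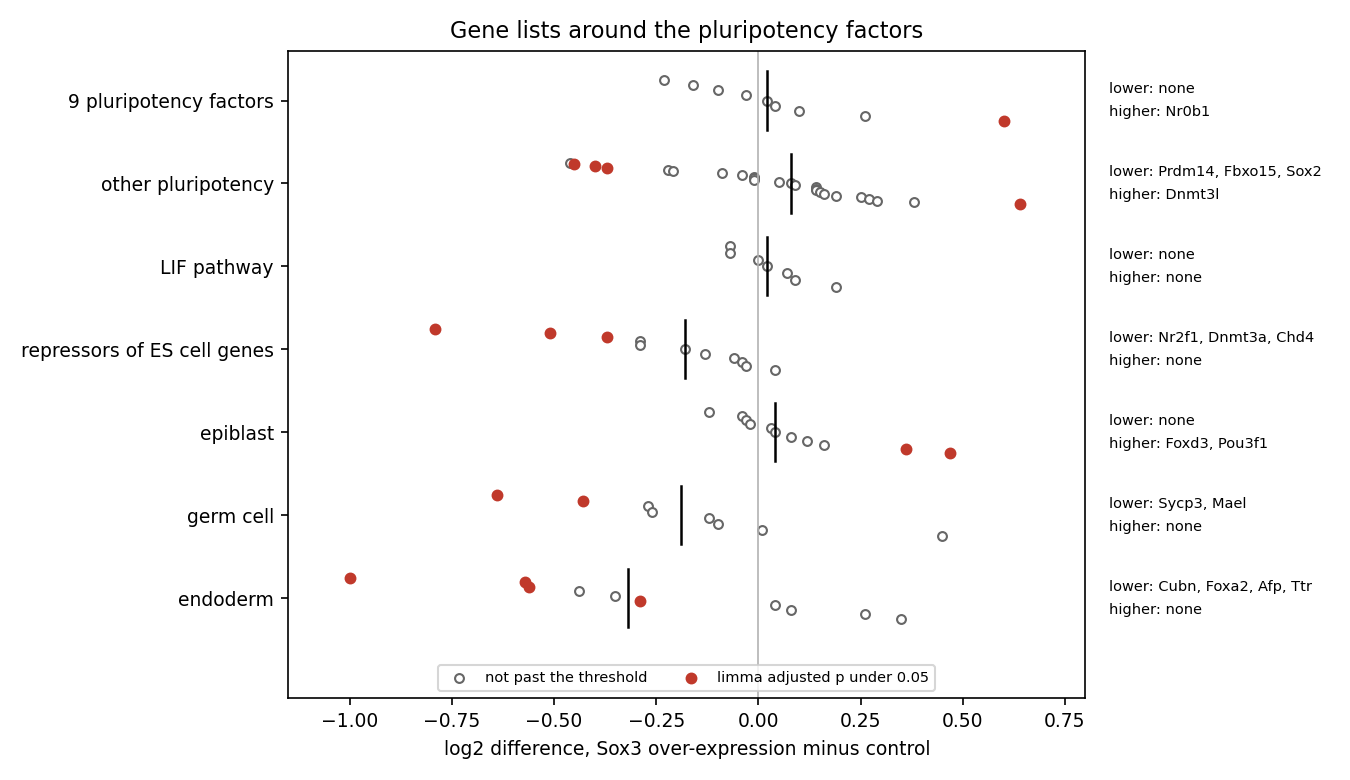
Log2 differences, Sox3 over-expression minus control, of the 9 pluripotency factors and of the genes of 6 other lists, 1 point per gene, filled where limma's adjusted p was under 0.05 and named on the right. Vertical bars are list medians, which run from -0.32 for endoderm genes to 0.08 for the other pluripotency genes.

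Genes of the postimplantation epiblast, which replace the naive genes as ES cells leave the ground state, were mostly dim. Of 11 such genes 7 were not above the receptor range, among them Otx2 and Fgf5 at 4.94 and 5.85 in the Sox3 cells and 4.9 and 5.77 in the control cells (both picked with their values known). The other 4, Dnmt3b, Sall2, Eomes and Pou3f1, lay above it, with means over all arrays of 10.64, 9.42, 8.01 and 7.87. Among all named genes 60.9% lay above it. In this list 2 genes rose and none fell, against 1.27% and 2.67% of all genes. Pou3f1, which encodes the POU factor Oct6, rose 1.39-fold, from 7.62, 7.65 and 7.63 to 8.15, 8.06 and 8.11 (difference 0.47 ± 0.05 SE, limma adjusted p = 0.00333), and it passed in all 13 other settings. Foxd3, a forkhead factor, rose by 0.36 ± 0.08 (SE; limma adjusted p = 0.045) from within the receptor range, and its call was lost in 5 of the 6 fits without 1 array (adjusted p up to 0.16) and, with all arrays, after quantile normalisation and cyclic loess (adjusted p = 0.057 in both).

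Markers of the labelled cell type and of other cell types were read on the same arrays. Sox3 was higher by 1.76 in the cells with the transgene (limma adjusted p = 0.000189), with no overlap between the groups. Of 13 measured neural progenitor genes 10 were above the receptor range, the intermediate filament gene Vim and Sox2 among them, whereas the averages of Pax6, Hes5 and Fabp7 were not (Vim, Pax6, Hes5 and Fabp7 were picked with their values known). Among all named genes 60.9% were above that range. Fabp7, a fatty acid binding protein gene of radial glia, was inside that range in the control cells, at 6.01 ± 0.03, and averaged 6.78 ± 0.47 in the Sox3 cells (SD, n = 3 each), all of whose arrays were above the control arrays, and the difference of 0.77 did not pass (limma adjusted p = 0.074). The rise of Sox3 goes with the transgene that sets its group, and which Sox3 transcripts its probe set reads was not tested. Besides Sox3, 1 gene of this list rose, its antagonist in neurogenesis Sox21 (higher by 0.84 ± 0.08 SE, limma adjusted p = 0.00307), and 1 fell, Sox2. Shares over all named genes were 1.27% higher and 2.67% lower. Sox1, the locus that carries GFP in both groups, averaged 6.86 ± 0.12 and 6.96 ± 0.11 (SD, n = 3; adjusted p from limma 0.46), 0.47 above the highest receptor gene. Of 8 neuron genes 2 were above that range, Tubb3 and Stmn2. Their differences were -0.51 and -0.22, with all Sox3 arrays below all control arrays. Neither passed (limma adjusted p = 0.051 and 0.057), though Tubb3 did in 3 of the 13 other settings.

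Germ cell genes share several regulators with naive ES cells. Of 8 measured 2 fell and 6 did not pass, where 2.67% of all genes fell. The 2 were the meiotic gene Sycp3 (difference -0.64 ± 0.14 SE, limma adjusted p = 0.048), whose mean of 6.25 lay inside the receptor gene range, and the piRNA pathway gene Mael (-0.43 ± 0.09 SE, limma adjusted p = 0.043). Their calls held in 2 and 1 of the 6 fits without 1 array (adjusted p up to 0.16 and 0.15). Neither passed after median centring (0.056 and 0.054), nor did Sycp3 after cyclic loess (0.056) or Mael with the block (0.067). The means of 7 of the 8 germ cell genes lay above the receptor gene range, against 60.9% of all genes. Prdm1 and Dazl were the 2 with positive differences, 0.45 and 0.01 (limma adjusted p = 0.086 and 0.94). For Prdm1 all Sox3 arrays were above all control arrays. Of 10 endoderm genes 4 fell, Cubn, Foxa2, Afp and Ttr, and none rose, where 2.67% of all genes fell and 1.27% rose. Differences were positive for 4 of the 10 and negative for 6. The largest positive one was that of Gata6 (0.35, limma adjusted p = 0.15), with all Sox3 arrays above all control arrays. The means of 8 of the 10 over all arrays lay above the receptor gene range, against 60.9% of all genes, and those of Afp and Ttr lay inside it. The mean signal of the 10 endoderm genes was 7.57 to 7.79 on the Sox3 arrays and 7.7 to 8.04 on the control arrays. With 1 array left out, Cubn, Foxa2, Afp and Ttr kept their call in 4, 1, 2 and 1 of the 6 fits. None of the 4 passed when Sox3 replicate 1 or replicate 2 was left out (adjusted p from limma up to 0.058 for Cubn, 0.12 for Foxa2, 0.088 for Afp and 0.11 for Ttr). Of 6 mesoderm and 5 trophoblast genes none passed (limma; 1 and 0 at an unadjusted p under 0.05), with Mesp1 and Kdr higher by 0.23 and 0.14 and Gcm1 and Cdx2 by 0.1 and 0.07 at adjusted p of 0.14, 0.28, 0.29 and 0.49. Whether the makeup of the sorted cells moved with the differences of the pluripotency factors was not tested.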

How the data were processed

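The deposited table holds 21940 probe sets with 1 log2 value per array that the authors made with RMA; the submitters' processing notes name Affymetrix Power Tools. No source used here gives the array type, the software version or the way probes were grouped, and array values carry no depth, so the 3 arrays per group set the precision. The 64 array control probe sets were left out. The other 21876 are RefSeq accessions, matched without versions to a RefSeq table (GRCm38.p6), which named 17123 of them (4753 had no symbol). A gene is read from its probe set with the highest mean.

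Groups were taken from the sample titles and compared in R 4.3.3 with the package limma 3.58.1 (lmFit, eBayes, two-sided, no block), with Benjamini-Hochberg adjustment over all 21876 probe sets and a threshold of 0.05, after a test on simulated data. Intervals are 95%, from limma's moderated error. The pluripotency factors, the gene lists and the rule for naming genes (up to 4 called genes per list by smallest p, otherwise the 2 with the smallest p) were chosen with earlier results of these data known. Upstream sequences are from RefSeq (GRCm38.p6), as the 250 bases before the annotated start. Where a gene has several windows the one nearest to its outer end was used.

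The alternatives were 7 other settings and 6 fits that left out 1 array.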

Additional observations from a re-analysis of the deposited data

How the results depend on the processing

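Over the 13 other settings, 105 of 117 values of the 9 pluripotency factors kept their direction and their side of the threshold. Nr0b1 passed in all 13. The number that passed was 2 after quantile normalisation, after cyclic loess and without dim probe sets (mean signal below the 25th percentile), where Esrrb joined Nr0b1, and 1 in the others. The near-zero difference of Zfp42 turned to 0.03 after quantile normalisation and 0.04 after cyclic loess, and with 1 array left out Pou5f1 ran from -0.08 to 0.11, Klf4 from -0.05 to 0.14 and Dppa3 from -0.06 to 0.23. Of the 25 other pluripotency genes 2 passed after cyclic loess (2 higher, against 1 higher and 3 lower) and 1 to 3 with 1 array left out. The number was 6 without dim probe sets (2 higher, 4 lower) and 5 with limma's trend and robust variance options (1 higher, 4 lower). Over all probe sets 791 passed, against 188 to 475 with 5 arrays, where fewer samples were used, and 1007 without dim probe sets. Probe sets that rose numbered 255 of 791 with the deposited values, 382 of 880 after quantile normalisation and 365 of 820 after cyclic loess. With the replicate number as a block, 758 passed, with 1 of the 9 factors among them. The labels give no pairing, so the numbers were not taken as pairs. Deviations of same-numbered arrays correlated at 0.29, -0.21 and 0.09, too few values to settle whether they were pairs. The block ended the calls of Fbxo15 and Mael (limma adjusted p = 0.063 and 0.067). Afp and Gcm1 gave no value without dim probe sets. The cause of these changes was not tested otherwise.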
